A study of Homo sapiens with 16 samples.

Results

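The major histocompatibility complex (MHC) was described here by its open chromatin, as the ATAC-seq peaks of 16 libraries on chromosome 6 between chr6:29600000-33400000 of the hg19 build. Peaks of different libraries were joined into 1 region where they had 1 base or more in common. A region was a member when it overlapped that window, and its midpoint set its interval. This gave 211 regions of 131357 on chromosomes 1 to 22 and X. The window was divided by position into a class I interval of 1.88 Mb (29600000 to 31480000), a class III interval of 0.86 Mb (to 32340000) and a class II interval of 1.06 Mb (to 33400000). They held 101, 62 and 48 regions. Membership used position alone and no measured change.

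The MHC holds the genes that let T cells see peptides. Class I molecules are present on nearly all nucleated cells and show peptides from inside the cell to CD8+ T cells, while class II molecules show peptides taken up from outside to CD4+ T cells and are mainly made by B cells, dendritic cells and macrophages. In human T cells class II genes are usually low until activation. The class III interval carries no antigen-presenting molecules of its own but holds complement, heat-shock and tumour necrosis factor genes among many housekeeping genes. The class II interval also contains the transporter and immunoproteasome genes that feed class I molecules.

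In the RefSeq gene table at hand, on the GRCh38.p14 build, the order along the chromosome runs from HLA-F and HLA-G through HLA-E, TUBB, FLOT1, IER3 and DDR1 to HLA-C, HLA-B, MICA and MICB in the class I part. NFKBIL1, LTA, TNF and LTB follow, then HSPA1A and HSPA1B (heat-shock proteins), C2, CFB, C4A and C4B (complement), AGER and NOTCH4. The class II genes run from HLA-DRA through the HLA-DQ genes to HLA-DOB, followed by TAP2, PSMB8, TAP1 and PSMB9 (peptide transport and the immunoproteasome), HLA-DMB, HLA-DMA, BRD2 and the HLA-DP genes, with RXRB, RING1, TAPBP and DAXX at the far end. These names are background only. The table is on another build than the peaks, so no region was tied to a gene, no annotation (exon, intron or UTR) was given to a region, and no sequence was printed. Regions are named by hg19 position, counted from 1.

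DND41 and MOLT4 are long-established human lines of T-cell acute lymphoblastic leukaemia, and each is a single model. Cells received ACBI-1 at 100 nM, or DMSO as the solvent control, and were taken after 3 h or 24 h, giving 8 groups of 2 libraries. ACBI-1 is a PROTAC that directs SMARCA2, SMARCA4 and PBRM1 of the SWI/SNF remodelling complexes to degradation. SWI/SNF complexes slide and evict nucleosomes, and many enhancers need them to stay open. In ATAC-seq the Tn5 transposase inserts adapters into open DNA, and a peak marks a stretch with many insertions. Whether a group's 2 libraries were grown as separate cultures is not given in the labels, so a p-value here reflects the spread among these libraries, which may be technical.

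The lists held 26145 to 46712 peaks per library, and ACBI-1 lists were the shorter ones. Read depth is unknown, so a missing peak may lie below the detection limit of its library. Groups followed the sample titles. In 8 of 16 samples another label, the cell line field, gave the opposite line, while the line code in the peak names matched the title in 16 of 16, and within the MHC the most similar library was of the titled line in 16 of 16. Peak names carried 1 tag in all 3 h lists and another in all 24 h lists, so time and whatever the tag stands for cannot be told apart. T-cell markers could not be checked without a gene annotation of this build.

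Each library had 87 to 133 peaks in the MHC, 0.263% to 0.424% of its list. The regions were densest in the class III interval, at 72.1 per Mb, against 53.7 in class I and 45.3 in class II. Of the 211 regions, 65 (30.8%) were found in all 16 libraries, 96 in 2 to 15 and 50 (23.7%) in a single library. Over the genome 9.16% of regions were found in all 16 and 51.0% in a single library, and on chromosome 6 outside the MHC the first share was 7.31%. A region of the MHC was thus found in every library more often than a region elsewhere, a description of these lists with no test. The share was 26.7% in class I (27 regions), 30.6% in class III (19) and 39.6% in class II (19).

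The regions open in every library were not spread evenly. The tightest group lay near the centromeric end of the class II interval, where 7 such regions fell within 74.7 kb at chr6:33216645-33291355. Stretches with no peak in any library were also longest in the class II interval. The largest ran for 163.6 kb at chr6:32426751-32590367, and others of 142.0 kb and 111.0 kb lay at chr6:32987301-33129286 and chr6:32653811-32764778. The longest in class I was 115.2 kb, at chr6:30932365-31047519. The lists held 0 peaks on alternate haplotype sequences, and how well reads align in this variable locus was not tested.

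**Figure D1:**
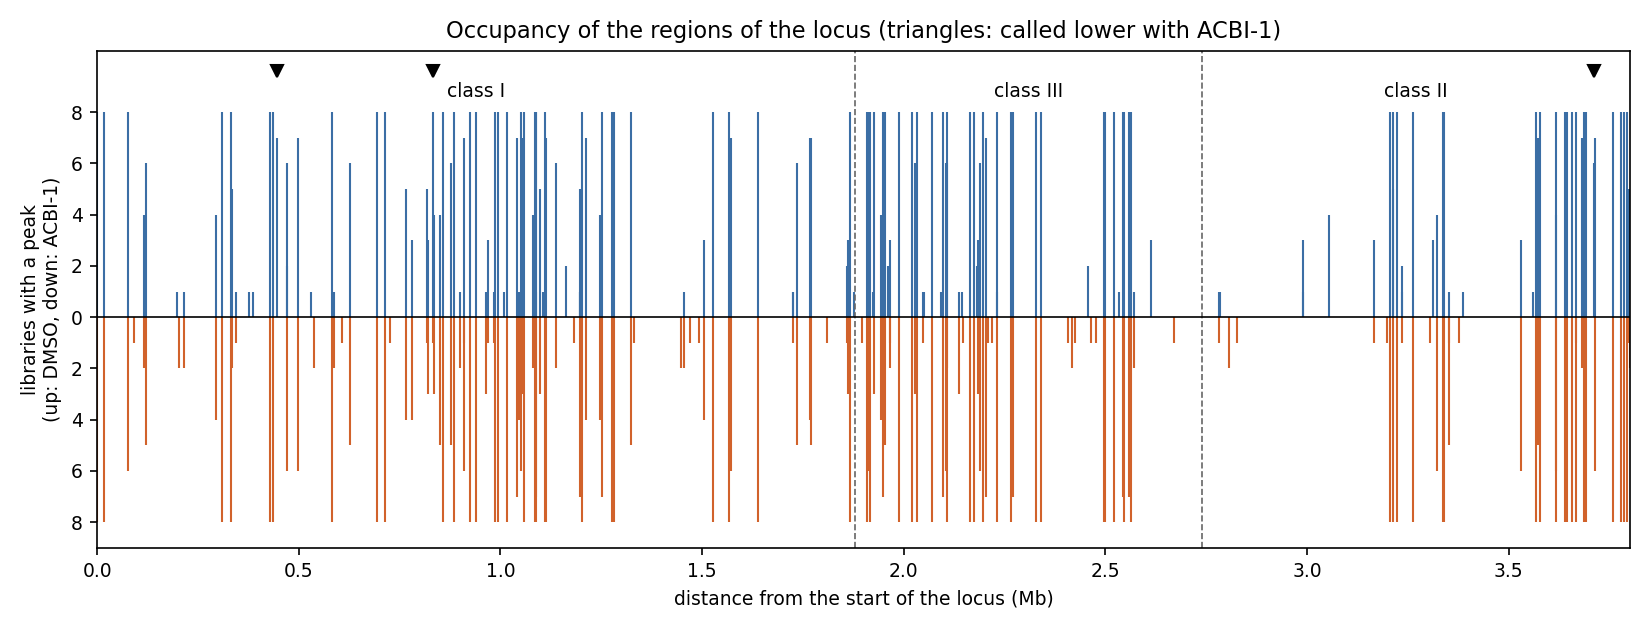
Number of libraries with a peak in each of the 211 regions, against distance from the start of the MHC window in Mb. Bars up count the 8 DMSO libraries, bars down the 8 ACBI-1 libraries, and triangles mark the 3 regions called lower with ACBI-1. Most regions reach a similar height on both sides, and the longest empty stretches lie in the class II interval.

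ACBI-1 was compared with DMSO first. The MHC had fewer peaks with ACBI-1, but its net loss was proportionally smaller than that of the rest of the genome. The number of peaks in the whole MHC changed by -11.1%, stratified by line and time, and the number outside it by -27.9%. By group the MHC changed by -17.6% (3 h) and -12.2% (24 h) in DND41, and by -11.0% (3 h) and -3.04% (24 h) in MOLT4. The matching values outside the MHC were -32.4%, -27.0%, -30.9% and -20.6%. In all 4 pairs of groups the net percentage fall in peak number was smaller in the MHC. These net changes set new peaks against lost ones and do not say which peaks were kept.

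In the class I interval the DMSO libraries had 65 and 46 peaks (DND41, 3 h), 62 and 59 (DND41, 24 h), 61 and 61 (MOLT4, 3 h) and 63 and 66 (MOLT4, 24 h). The ACBI-1 libraries had 41 and 49, 57 and 53, 50 and 56, and 65 and 58 in the same order. The arms overlapped, with the lowest DMSO value, 46, in DND41 at 3 h and the highest ACBI-1 value, 65, in MOLT4 at 24 h. Class I peaks fell from 60.4 ± 6.23 to 53.6 ± 7.17 (SD, n = 8 each), a difference of -6.75 (SE 2.92), by a two-sided exact permutation test with labels exchanged within line and time (p = 0.0185, Benjamini-Hochberg adjusted p = 0.0294).

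The class II interval, at 26 to 35 peaks in DMSO libraries (median 28) and 22 to 30 in ACBI-1 libraries (median 24.5), also overlapped between arms. Its peaks fell from 28.9 ± 2.85 to 25.3 ± 3.11 (SD, n = 8 each), a difference of -3.63 (SE 1.14; exact permutation p = 0.0108, adjusted p = 0.0189). Class III had 31 to 38 peaks in DMSO libraries (median 36) and 24 to 38 in ACBI-1 libraries (median 33). Its means were 35.4 ± 2.56 and 32.4 ± 4.10 (SD, n = 8 each), and the difference of -3 (SE 1.71) did not pass the test (exact permutation p = 0.0988, adjusted p = 0.125). Adjustment ran over 2685 windows, which were the 3 intervals and windows of 1 Mb over the rest of the genome. A lower count with ACBI-1 was called in 68.5% of these windows and a higher one in 0.0745%, so a fall in 2 of 3 intervals was near the background.

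**Figure D2:**
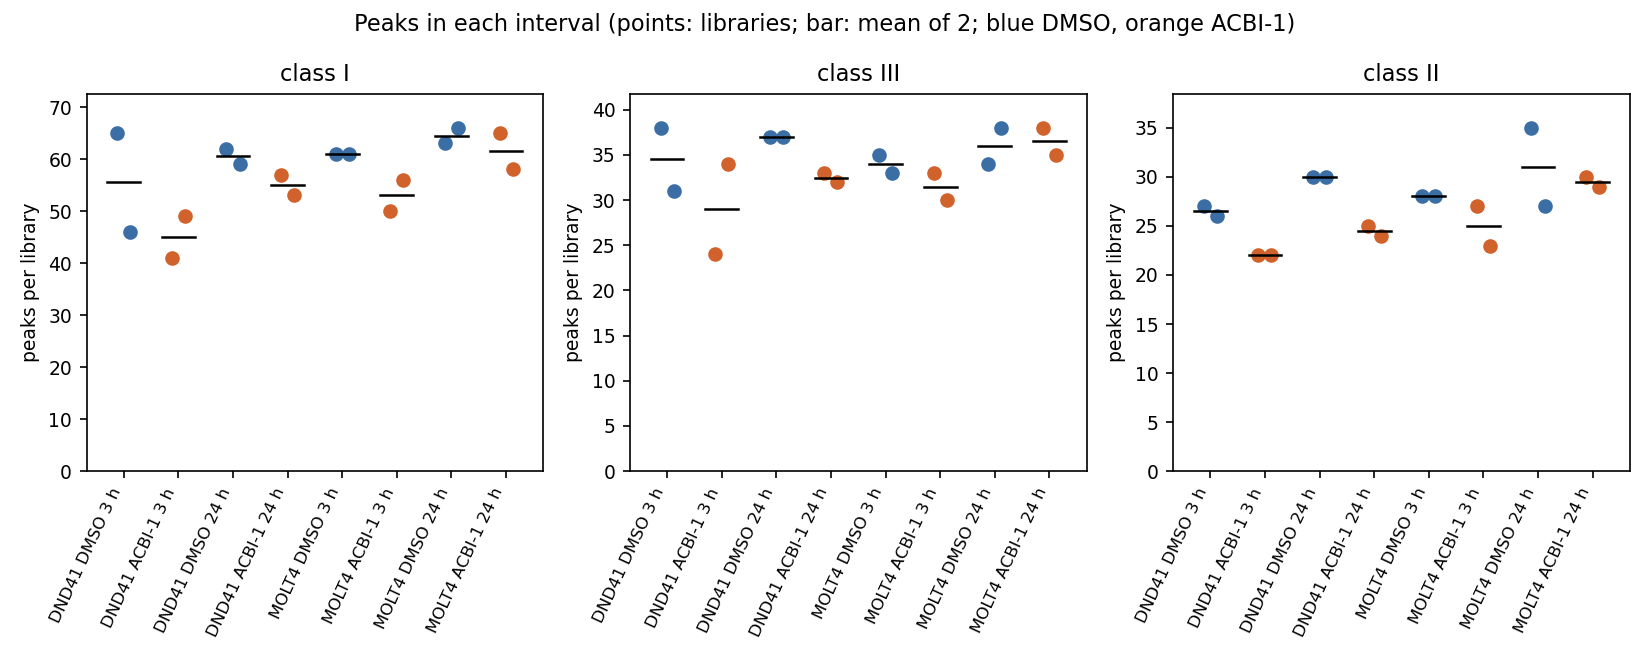
Peaks per library in the class I, class III and class II intervals, by group on the horizontal axis. Points are libraries and bars are the mean of the 2 libraries of a group. In class I the values run from 41 to 66 and the DND41 DMSO group of 3 h has the widest gap, 65 and 46, while in class II the widest gap is in MOLT4 DMSO at 24 h, 35 and 27.

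Neither call on counts was stable. A common minimum peak width of 170 bp ended both (-5.25 in class I and -2.88 in class II, adjusted p = 0.101 and 0.0741 by the exact permutation test). With every list cut to its 26145 widest peaks both differences turned positive (4.13 and 0.75, adjusted p = 0.183 and 0.669 by that permutation test). For class I the adjusted p passed 0.05 when DND41 DMSO 3 h replicate 1 (difference -4.38, adjusted p = 0.0680), DND41 ACBI-1 3 h replicate 1 (-5.75, 0.144) or replicate 2 (-7.75, 0.0636), MOLT4 DMSO 24 h replicate 2 (-6.38, 0.0502) or MOLT4 ACBI-1 24 h replicate 2 (-5.88, 0.0549) was left out of the exact permutation test. For class II this happened without MOLT4 DMSO 24 h replicate 1 (-2.63, 0.0626) or MOLT4 ACBI-1 24 h replicate 2 (-3.50, 0.0507).

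Set against the length of each list, the MHC took a larger share with ACBI-1 in all 3 intervals. Class I held 1.18 to 1.69 peaks per 1000 peaks of the library in DMSO libraries (median 1.40) and 1.56 to 2.02 in ACBI-1 libraries (median 1.71). The arms overlapped over all libraries, but within each line and time every ACBI-1 library lay above every DMSO library, in 16 of 16 pairs. The class I share rose from 1.42 ± 0.158 to 1.74 ± 0.163 per 1000 (SD, n = 8 each), a difference of 0.32 (SE 0.041), or 22.7%.

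The class III share ran from 0.776 to 0.971 per 1000 in DMSO libraries (median 0.810) and from 0.918 to 1.22 in ACBI-1 libraries (median 1.04). It rose from 0.833 ± 0.0653 to 1.05 ± 0.0986 (SD, n = 8 each), a difference of 0.22 (SE 0.035), or 26.3%. In class II the share ran from 0.588 to 0.882 in DMSO (median 0.665) and from 0.701 to 1.01 with ACBI-1 (median 0.798), and it rose from 0.682 ± 0.0889 to 0.825 ± 0.106 (SD, n = 8 each), by 21.0%. Both also had 16 of 16 pairs within line and time higher. The exact permutation p was 0.00154 in each of the 3 intervals, as low as this design allows, and the adjusted p 0.0264. A higher share was called in 5.92% of windows and a lower one in 7.49%. The calls compare lists of unequal length and did not hold with equal ones. Equal lengths were reached by dropping the narrowest peaks, so length and peak width cannot be told apart there. With every list cut to its 26145 widest peaks the differences were 0.158, 0.0861 and 0.0287 per 1000 in class I, III and II, with exact permutation p of 0.0478, 0.0957 and 0.449 and adjusted p of 0.183, 0.260 and 0.669. For class II, leaving out any of 5 libraries also gave an adjusted p of 0.0512 to 0.0754: DND41 DMSO 3 h replicate 1, DND41 ACBI-1 3 h replicate 1, MOLT4 DMSO 3 h replicate 1, MOLT4 DMSO 24 h replicate 2 and MOLT4 ACBI-1 24 h replicate 2.

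**Figure D3:**
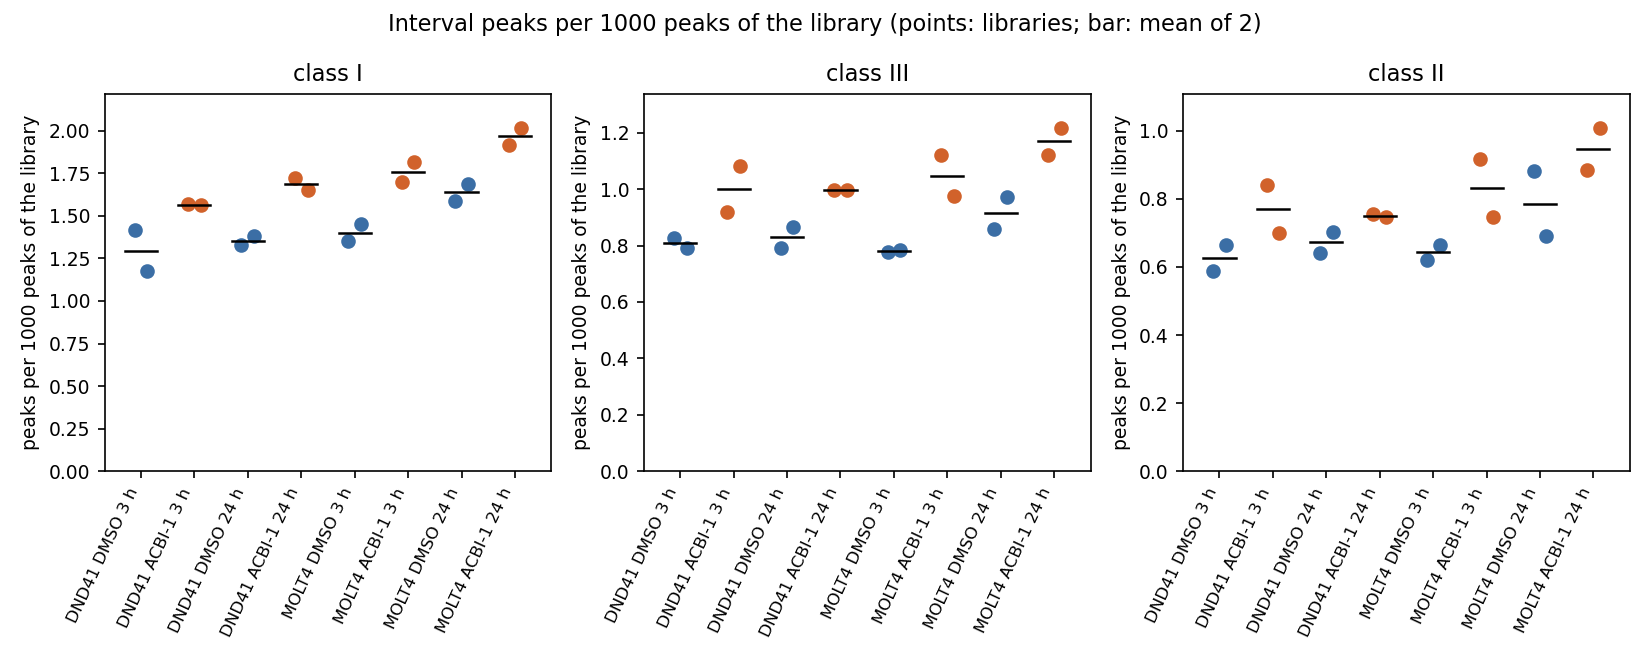
Peaks in each interval per 1000 peaks of the library, by group. Points are libraries and bars are group means. In each line and time the ACBI-1 points lie above the DMSO points in all 3 intervals, with the highest class I value, 2.02, in a MOLT4 ACBI-1 library of 24 h.

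The bases covered by peaks fell in all 3 intervals, although for class I and III the call did not hold with equal list lengths. Class I covered 18454 to 38070 bases in DMSO libraries (median 32884) and 15909 to 33779 in ACBI-1 libraries (median 26364). The arms overlapped widely, and within line and time 15 of 16 pairs were lower with ACBI-1. The mean fell from 31553 ± 6535 to 25566 ± 5435 bases (SD, n = 8 each; exact permutation p = 0.00617, adjusted p = 0.00991). Class III fell from 19538 ± 3810 to 16904 ± 3263 bases (exact permutation p = 0.0154, adjusted p = 0.0214) and class II from 17416 ± 2898 to 14814 ± 2726 (exact permutation p = 0.00154, adjusted p = 0.00497; SD, n = 8 each). Covered bases were called lower in 79.4% of windows and higher in 0.0372%. Per 1000 bases covered by the whole list, a measure added after the data were seen, all 3 intervals were instead higher with ACBI-1, by 0.182, 0.191 and 0.154 in class I, III and II, with adjusted p of 0.0459, 0.0176 and 0.0276 by the exact permutation test. A rise on that scale was called in 11.9% of windows. With equal list lengths the falls in class I and class III were smaller and not called (-3479 and -1360 bases, adjusted p = 0.0678 and 0.127 by the exact permutation test). For class III the fall in bases was lost without DND41 DMSO 3 h replicate 1 (-2036 bases, exact permutation, adjusted p = 0.0643) or DND41 ACBI-1 3 h replicate 1 (-2158 bases, adjusted p = 0.0683).

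The rise in share had the same direction in both lines and at both times. In DND41 the class I share went from 1.33 ± 0.106 to 1.62 ± 0.0750 per 1000 and in MOLT4 from 1.52 ± 0.148 to 1.86 ± 0.138 (SD, n = 4 each). The exact permutation p was 0.0556 in both, as low as 8 libraries of 1 line allow. The difference between lines in the ACBI-1 effect was 0.043, 0.082 and 0.063 per 1000 in class I, III and II (exact permutation p = 0.775, 0.319 and 0.540). Between times it was 0.018, -0.018 and -0.047 (exact permutation p = 0.887, 0.844 and 0.608). None of the 2685 windows was called for either difference by this test, with 88 and 136 at an unadjusted p under 0.05. Line labels were exchanged within time and treatment, and time labels within line and treatment. An overall difference between lines or times can thus widen the spread of this test and raise its p. These values do not show that the effects were equal.

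Single regions were compared next by whether they held a peak. Of the 211 regions, 22 had a number of peaks that allowed a p of 0.05 or less in the treatment test. The other members could not reach such a p at any division of their peaks between arms, as with regions too rare or too constant. A partial loss, with few peaks absent in each line and time, could also go untested. The exact permutation test with Benjamini-Hochberg adjustment over 8082 regions called 3 of the 22 (13.6%) lower with ACBI-1 and 0 higher. Over the genome 27.9% were called lower and 0.111% higher. At an unadjusted p under 0.05, 5 MHC regions (22.7%) were lower and 0 higher, where 56.7% of the 8082 regions were lower and 0.445% higher. With equal list lengths, and with all regions of at least 2 libraries in the adjustment, no MHC region was called, and none in the genome either.

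The first called region, chr6:30045110-30045492 in the class I interval, had a peak in 7 of 8 DMSO and 0 of 8 ACBI-1 libraries. Its peaks covered 265 and 244 bases (DND41, 3 h), 325 and 275 (DND41, 24 h), 171 and 231 (MOLT4, 3 h) and 174 in the second MOLT4 library of 24 h, with none in the first. Every DND41 peak there was wider than every MOLT4 peak. Presence differed between arms with an exact permutation p of 0.00463 and an adjusted p of 0.0442.

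The second, chr6:30431188-30431837, also in class I, had a peak in all 8 DMSO libraries and in 1 of 8 ACBI-1 libraries. The DMSO peaks covered 393 and 168 bases, 264 and 465, 195 and 531, and 641 and 171 in the same order of groups. The ACBI-1 peak, in MOLT4 at 3 h, covered 155 bases and was narrower than every DMSO peak (exact permutation p = 0.00463, adjusted p = 0.0442).

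The third, chr6:33311609-33312354 in the class II interval, had a peak in 6 of 8 DMSO and 0 of 8 ACBI-1 libraries. It was absent in both DND41 DMSO libraries of 3 h, covered 194 and 225 bases in those of 24 h, and in MOLT4 covered 544 and 399 bases at 3 h and 231 and 443 at 24 h (exact permutation p = 0.00926, adjusted p = 0.0497). Its call was lost with a common minimum peak width of 170 bp (exact permutation, adjusted p = 0.0527) and without strata (0.0761). Leaving out each library in turn gave 3 to 5 called regions, with 5 without DND41 DMSO 3 h replicate 2, where the genome had 2689.

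**Figure D4:**
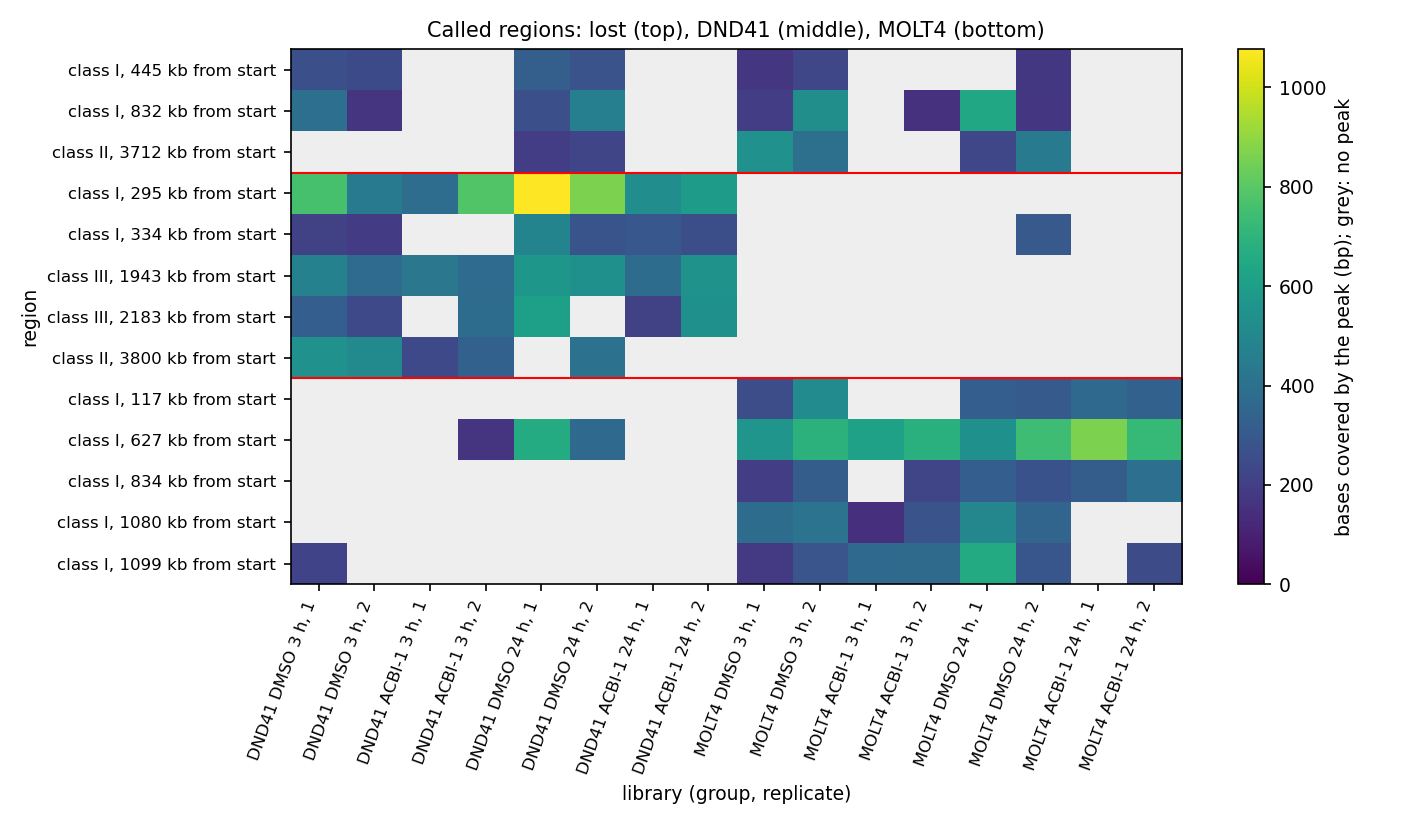
Bases covered by the peak of each region called in the treatment or line tests of presence, by library, with regions named by interval and distance from the start of the MHC window. Grey marks no peak. The 3 regions at the top are nearly empty in ACBI-1 libraries, and the regions below them are filled in DND41 or in MOLT4 libraries.

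No region of the MHC had a peak in every library of an arm and in none of the other. Of the 79 regions found in every DMSO library, 65 (82.3%) were found in every ACBI-1 library and 0 in none. The reverse base, 66 regions found in every ACBI-1 library, also had 0 absent from DMSO, and 0.00805% in the genome. Over the genome 65.1% of 18483 such regions were kept in all 8, and 1.13% were in none. The remaining 14 MHC regions had a peak in 7 ACBI-1 libraries (7 regions), 6 (3 regions), 5 (2 regions), 3 (1 region) or 1 (1 region). Among regions found in at least 2 libraries, 13 of 161 in the MHC (8.07%) had peaks in DMSO libraries only and 6 (3.73%) in ACBI-1 libraries only. The genome had 21.4% and 3.36%. These shares are a description with no test.

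Within a line and time, regions with a peak in both DMSO and neither ACBI-1 library were counted. There were 10 of 94 (10.6%) in DND41 at 3 h, where the genome had 20.9%, and 12 of 113 (10.6%) in DND41 at 24 h, where the genome had 27.1%. MOLT4 had 6 of 106 (5.66%) at 3 h, against 22.2%, and 16 of 112 (14.3%) at 24 h, against 27.7%. The MHC share was below the genome's in all 4. The reverse pattern was found in 2 of 78 regions (2.56%), 3 of 96 (3.13%), 1 of 93 (1.08%) and 7 of 106 (6.60%) with a peak in both ACBI-1 libraries, where the genome had 1.15%, 5.3%, 1.48% and 4.57%.

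Sites were also described by how broad they were. A library was scored on reference sites, meaning regions that both DMSO libraries of the same line had at the other time point. No library thus helped to choose its own sites, and the times were scored on different ones. At 94 to 113 such sites of the MHC, DMSO libraries had a peak at 79.6% to 99.1% (median 95.6%) and ACBI-1 libraries at 73.5% to 90.4% (median 87.3%). The means were 93.3% ± 6.27 and 85.2% ± 5.89 (SD, n = 8 each). Over the genome they were 87.9% ± 4.48 and 67.0% ± 8.54 (SD, n = 8 each). The MHC value lay above the genome's in 8 of 8 ACBI-1 libraries, by 1.91 to 30.3 percentage points, and in 6 of 8 DMSO libraries. The ACBI-1 gap was smallest in DND41 at 3 h (73.5% against 68.3% and 79.6% against 77.7%). It was largest at 24 h, as in the second MOLT4 library (86.8% against 56.5%). The DMSO exceptions were both DND41 libraries of 3 h (89.4% against 94.0% and 79.6% against 86.5%).

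Sites were then divided by the genome's tertiles of DMSO peak width. In the MHC a library had only 17 to 29 narrow, 29 to 35 middle and 41 to 60 broad sites. Narrow MHC sites had a peak in 79.4% ± 14.5 of cases in DMSO and 59.9% ± 18.6 in ACBI-1 libraries, middle sites in 95.8% ± 5.60 and 85.7% ± 8.22, and broad sites in 98.4% ± 3.05 and 97.1% ± 2.12 (SD, n = 8 each). The genome's narrow sites had 70.7% and 37.2%, its middle sites 93.6% and 68.2%, and its broad sites 99.5% and 95.5%. Broad sites were thus kept nearly in full in both. Among ACBI-1 libraries the MHC lay above the genome in 6 of 8 at narrow, 8 of 8 at middle and 6 of 8 at broad sites. Among DMSO libraries it did so in 4 of 8, 5 of 8 and 6 of 8. The classes did not match widths in full. For MOLT4 libraries of 24 h the median narrow site covered 256.5 bp in the MHC and 224 bp in the genome. Middle sites there covered 396 and 399 bp, and broad sites 659.5 and 740.75 bp. By interval, class I sites had a peak in 90.7% of cases with DMSO and 82.8% with ACBI-1, class III sites in 96.9% and 90.2%, and class II sites in 94.0% and 84.0%. The sites share libraries with the comparison of arms, so no test was made.

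**Figure D5:**
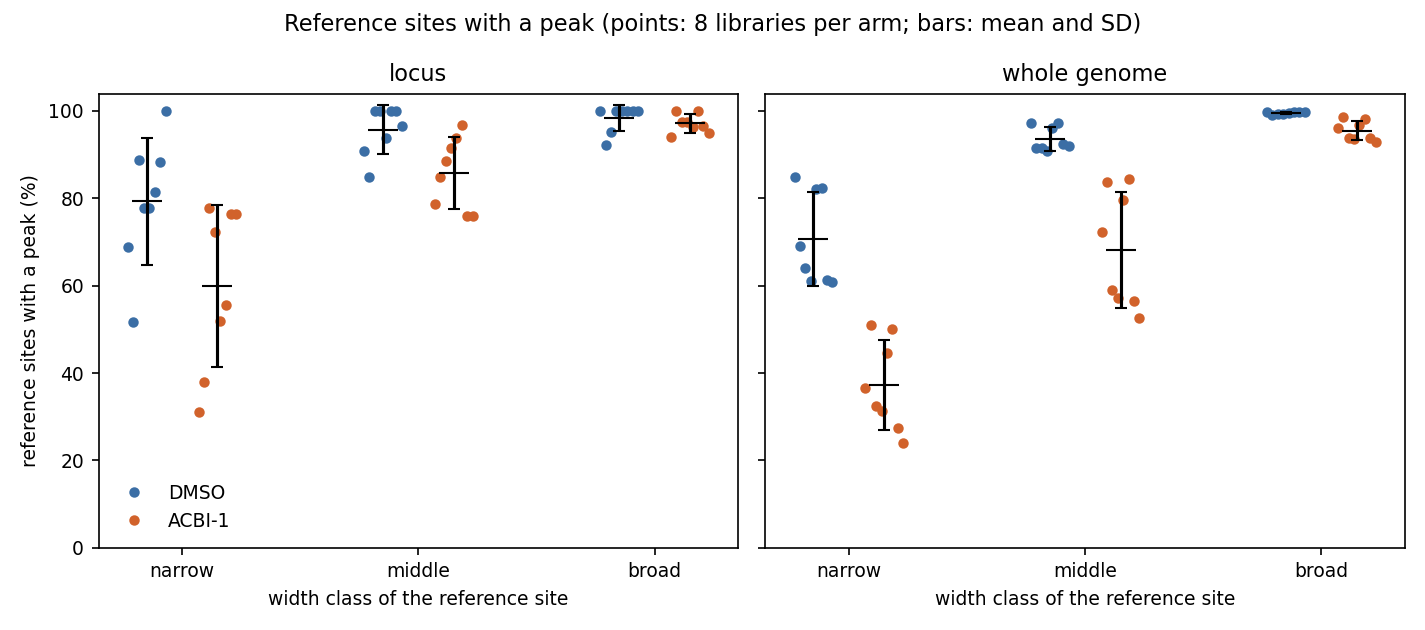
Share of reference sites with a peak (%), by width class of the site, for the MHC and the whole genome. Points are the 8 libraries of each arm, with mean and SD as bars. The arms differ most at narrow sites and least at broad ones, where MHC means are 98.4% and 97.1%.

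The 65 regions found in every library were compared by width, the bases their peaks covered. Their mean widths ran from 250 to 1316 bp with a median of 641 bp, against 698 bp for the 12037 such regions of the genome. Widths were divided by the library's median over those 12037 regions before the test. With ACBI-1, 34 of 65 had a larger and 31 a smaller mean relative width, with a median log2 difference of 0.0052, against 0.0094 over the genome. The exact permutation test called 0 of 65, and 0 of 12037. At an unadjusted p under 0.05, 3 MHC regions were wider and 4 narrower, against 1077 and 903 in the genome.

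The broadest region, chr6:30523647-30525402 in class I, covered 454 to 1704 bases (median 1455, n = 16). The low values, 517, 454 and 996, all came from DND41 libraries of 3 h, and the other libraries had 1143 or more. Next came chr6:30293563-30295233 in class I with a mean of 1111 ± 217 bp (SD, n = 16). The other regions of this rank were chr6:31587755-31588993 and chr6:31632707-31634095 in class III, chr6:32820967-32822373 in class II and chr6:31164672-31166262 in class I, with means of 1107 ± 69.5, 1099 ± 274, 1069 ± 170 and 1058 ± 285 bp (SD, n = 16). The first of these 4 was the most even, at 938 to 1208 bp in every library. None of the 6 was called for treatment. In MOLT4, 8 of the 65 regions (12.3%) had widths that did not overlap between arms at either time and moved in opposite directions at 3 h and 24 h, where 4.68% of the 12037 regions of the genome did, and chr6:30293563-30295233 was among them. DND41 had 1 (1.54%), where the genome had 2.97%.

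The region with the smallest p for treatment among those named by size of change was chr6:33266159-33267808 in class II. It covered 909, 500, 1450, 1152, 914, 892, 1343 and 1187 bases in DMSO libraries (DND41 3 h, DND41 24 h, MOLT4 3 h, MOLT4 24 h, 2 each) and 493, 528, 757, 849, 720, 761, 853 and 718 in ACBI-1 libraries. In 3 of the 4 pairs of groups both ACBI-1 values lay below both DMSO values, the exception being DND41 at 3 h. The log2 difference in relative width was -0.39 (exact permutation p = 0.00309, adjusted p = 0.130). The other named decreases, also not called, were -0.59 at chr6:29932495-29933245 (exact permutation, adjusted p = 0.292) and -0.36 at chr6:30456898-30458239 (0.290). The largest increases were 0.24 at chr6:32939382-32940790, 0.21 at chr6:30875531-30876271 and 0.20 at chr6:33393418-33394078, with adjusted p of 0.358, 0.233 and 0.363 by the exact permutation test.

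The lines were compared next, within time and treatment. MOLT4 libraries had more peaks of the class I interval per 1000 than DND41 libraries. The class I share ran from 1.18 to 1.72 per 1000 in DND41 (median 1.49) and from 1.35 to 2.02 in MOLT4 (median 1.69). The lines overlapped, and MOLT4 was higher in 15 of 16 pairs within time and treatment. The means were 1.47 ± 0.181 and 1.69 ± 0.226 (SD, n = 8 each; exact permutation p = 0.00309, adjusted p = 0.00770), and 33.2% of windows were called higher in MOLT4 and 29.2% in DND41. Class III differed by 0.069 per 1000 (exact permutation p = 0.0957, adjusted p = 0.133) and class II by 0.097 (p = 0.0417, adjusted p = 0.0640), neither past the threshold.

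The number of peaks did not differ past the threshold in any interval. It was 54.0 ± 8.26 in DND41 and 60.0 ± 5.24 in MOLT4 for class I, 33.3 ± 4.53 and 34.5 ± 2.67 for class III, and 25.8 ± 3.15 and 28.4 ± 3.38 for class II (SD, n = 8 each). The adjusted p by the exact permutation test were 0.0573, 0.583 and 0.0835, with 26.9% of windows called higher in MOLT4 and 26.6% in DND41. Some alternatives of the same exact permutation test did call a difference. Class I was called without DND41 DMSO 3 h replicate 1 (8.38 peaks, exact permutation, adjusted p = 0.00666) or DND41 DMSO 24 h replicate 1 (6.38, 0.0495), with equal list lengths (6.38, 0.0249) and with the window longer by 100 kb at both ends (7.50, 0.0294). Class II was called without MOLT4 DMSO 24 h replicate 2 (3.63, adjusted p = 0.00710, permutation test). Over all leave-outs the difference ran from 3.63 (without DND41 DMSO 3 h replicate 2) to 8.38 in class I and from 1.63 (without MOLT4 DMSO 24 h replicate 1) to 3.63 in class II. Covered bases were higher in MOLT4 in all 3 intervals, at 30637 ± 5336 against 26482 ± 7375 in class I, 19592 ± 2874 against 16850 ± 4072 in class III and 17239 ± 2335 against 14990 ± 3370 in class II (SD, n = 8 each; adjusted p = 0.0341, 0.00496 and 0.0140, exact permutation test). In class III all 16 pairs were higher in MOLT4. Of windows, 33% were called higher in MOLT4 and 26% in DND41 for bases. The class I call was lost when any of 9 libraries was left out, with adjusted p of 0.0523 to 0.155: 4 of DND41 (DMSO 3 h replicate 2, ACBI-1 3 h replicate 1 and both of ACBI-1 24 h) and 5 of MOLT4 (all 4 of 3 h and ACBI-1 24 h replicate 1), with differences of 2675 to 4586 bases. Per 1000 bases covered by the whole list, MOLT4 was higher by 0.223, 0.146 and 0.116 in class I, III and II. The adjusted p were 0.0115, 0.00381 and 0.0138 by the exact permutation test. Of windows, 33.6% were called higher in MOLT4 and 34.8% in DND41. That scale was not rerun with libraries left out.

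Presence could be tested between lines at 21 regions. The exact permutation test called 5 as more frequent in MOLT4 libraries and 5 as more frequent in DND41 libraries, each 23.8% of the 21, where 40.8% and 23.3% of 11709 regions were called over the genome. The clearest were 2 regions with a peak in all 8 DND41 and no MOLT4 library. At chr6:29894127-29895356 in class I, the DND41 peaks covered 765 and 440 bases (DMSO, 3 h), 387 and 786 (ACBI-1, 3 h), 1077 and 864 (DMSO, 24 h) and 526 and 591 (ACBI-1, 24 h). At chr6:31543076-31543791 in class III they covered 475 and 375, 429 and 378, 571 and 542, and 382 and 552. Both were present with ACBI-1 at both times, so the difference between lines held in each arm (exact permutation p = 0.00154, the smallest possible, adjusted p = 0.0111). Among regions in all 8 DND41 libraries, 2 of 69 in the MHC (2.90%) and 2.55% in the genome were in no MOLT4 library. Among those in all 8 MOLT4 libraries the MHC had 0 of 82 in no DND41 library, and the genome 7.8%.

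The other 3 DND41 regions were chr6:29933771-29934254 in class I (6 DND41 and 1 MOLT4 libraries, adjusted p = 0.0433), chr6:31782950-31783569 in class III (6 and 0, 0.0311) and chr6:33399700-33400245 in class II (5 and 0, 0.0433), by the exact permutation test. The last runs over the end of the MHC window. All 5 MOLT4 regions lay in the class I interval. At chr6:30434179-30434603 a peak was found in 7 MOLT4 and 0 DND41 libraries (exact permutation, adjusted p = 0.0184). At chr6:29716583-29717120 and chr6:30679648-30680147 it was 6 and 0 (both 0.0267), at chr6:30698501-30699193 7 and 1 (0.0311) and at chr6:30227005-30227872 8 and 3 (0.0433, same test).

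At chr6:30227005-30227872 the MOLT4 peaks covered 542 to 866 bases (678 ± 105; SD, n = 8), the broadest mean of these 5 regions, and the 3 DND41 peaks covered 164, 661 and 370. The number of regions called for DND41 was 3 without any of DND41 DMSO 3 h replicate 1 or 2 or MOLT4 DMSO 3 h replicate 1 or 2. The genome then had 2051 to 2229. The number called for MOLT4 was 8 without DND41 DMSO 3 h replicate 1, where the genome had 5138. With all regions of at least 2 libraries in the adjustment none of the 10 was called (adjusted p = 0.0612 to 0.238 by the exact permutation test), and none in the genome. Equal list lengths ended the calls at chr6:30434179-30434603, chr6:30698501-30699193 and chr6:31782950-31783569 (each 0.0570, same permutation test). Without strata those at chr6:29933771-29934254, chr6:30227005-30227872 and chr6:33399700-33400245 were lost (0.101, 0.0715 and 0.0715).

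Among the 65 regions found in every library, 45 had a larger mean relative width in MOLT4 and 20 in DND41, with a median log2 difference of 0.059, against -0.017 over the genome. The exact permutation test called 5 wider in MOLT4 (7.69%) and 0 in DND41, where 4.2% and 6.26% were called over the genome. At an unadjusted p under 0.05 there were 8 (12.3%) and 0, where the genome had 12.2% and 17.0%, so the number wider in MOLT4 was at the background share. The 5 are named here after their values were seen. At chr6:32121337-32122771 in class III the widths were 244 to 859 bp in DND41 (611 ± 201) and 738 to 1205 bp in MOLT4 (1021 ± 178; SD, n = 8 each), overlapping in 738 to 859, with a log2 difference of 0.75 (exact permutation, adjusted p = 0.0281). The others were chr6:30802072-30803205 (0.49, 0.0281), chr6:31164672-31166262 (0.49, 0.0443), chr6:31632707-31634095 (0.39, 0.0368) and chr6:32936067-32936901 (0.25, 0.0443). The number called was 1 to 3 when any of 13 of the 16 libraries was left out and 3 with equal list lengths, so these calls rest on the full set of libraries. The genome's number was then 296 to 429 and 426, against 506 in the main test.

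The third comparison, 24 h against 3 h, cannot be separated from the tag in the peak names. The number of peaks did not pass the threshold in any interval. Class I had 53.6 ± 8.42 at 3 h and 60.4 ± 4.41 at 24 h, class III 32.3 ± 4.13 and 35.5 ± 2.33, and class II 25.4 ± 2.62 and 28.8 ± 3.45 (SD, n = 8 each; adjusted p = 0.184, 0.269 and 0.0869, exact permutation test within line and treatment). None of the 2685 windows was called by that test. Shares differed by 0.157, 0.068 and 0.071 per 1000, with adjusted p of 0.0618, 0.244 and 0.274 by that test, where 1.94% of windows were called higher at 24 h and 4.32% at 3 h.

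Covered bases were higher at 24 h in every interval. In class I they ran from 15909 to 30297 at 3 h (median 24425) and from 26581 to 38070 at 24 h (median 34625). The times overlapped over all libraries and not within line and treatment, where 16 of 16 pairs were higher at 24 h. The differences were 8891 bases in class I, 5408 in class III and 4330 in class II, each with an exact permutation p of 0.00154 and an adjusted p of 0.0115. Bases were called higher at 24 h in 22.5% of windows and at 3 h in 0.223%. Bases were also set per 1000 bases covered by the whole list, a measure added after the data were seen. On that scale 24 h was higher by 0.277, 0.155 and 0.108 in class I, III and II. The adjusted p were 0.0157, 0.0157 and 0.0311 by the exact permutation test. Of windows, 10.6% were called higher at 24 h and 14.6% at 3 h. That scale was not rerun with libraries left out. The median width of an MHC peak was 463 ± 40.2 bp at 3 h and 557 ± 41.1 bp at 24 h (SD, n = 8 each), and over all peaks of a list 335 ± 30.7 and 380 ± 37.7 bp.

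Presence could be tested between times at 12 regions and 0 were called, as in the 3762 regions of the genome, by the exact permutation test. At an unadjusted p under 0.05 there was 1, chr6:30845290-30845868 in class I, with a peak in 1 of 8 libraries at 3 h and 7 of 8 at 24 h (exact permutation p = 0.0262, adjusted p = 0.246), named after its values were seen. That is 8.33% of the 12, where 7.71% of the 3762 regions passed the same unadjusted threshold. In relative width 1 of the 65 regions was called wider at 24 h and 3 wider at 3 h, where 2.94% and 9.79% were called over the genome. These counts depend on the scaling: with widths not divided by the library's median they were 36 and 0 of the 65. The genome then had 3704 and 21 of 12037. Leaving out each library in turn gave 0 to 3 and 0 to 5. The genome had 242 to 375 where 3 were wider at 24 h, and 1245 where 5 were wider at 3 h. The first was chr6:30456898-30458239 in class I (log2 difference 0.54, exact permutation, adjusted p = 0.0425), a call that held in 3 of 16 such leave-outs, those of DND41 DMSO 3 h replicate 1, DND41 ACBI-1 3 h replicate 2 and MOLT4 DMSO 3 h replicate 1. The other 3, at chr6:30034409-30035298, chr6:30614659-30615630 and chr6:30684839-30685527, changed by -0.17, -0.20 and -0.18 relative to the library's median. They were wider at 24 h in absolute bases, by 0.066, 0.035 and 0.061 on the log2 scale.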

How the data were processed

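ATAC-seq was measured in 16 libraries, 2 in each of 8 groups. The authors deposited 1 peak list for each library, with chromosome, start, end and peak name, so the values used are positions on hg19. Per the submitters' processing notes the tools were MACS2 2.1.1.2016030, Bowtie2, SAMtools and Picard, with no roles or settings stated. Peak heights, scores and read depths were not analysed here, and no counting interval was given.

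Peaks on chromosomes 1 to 22 and X were merged where they shared 1 base. Counts per interval used peak midpoints and were adjusted over 2685 windows, the 3 intervals and those 1 Mb windows elsewhere that averaged at least 3 peaks. The members, gene lists and tests were chosen with earlier results of these data known. Treatment was tested by an exact, two-sided permutation test, exchanging labels within line and time (1296 exchanges), and line and time likewise within the other factors. Calls needed a Benjamini-Hochberg adjusted p under 0.05 over the whole table. Regions were tested for presence where their occupancy allowed p of 0.05 or less, and for log2 width where all 16 libraries had a peak.

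Named regions were those called for treatment (up to 12) or line (up to 6 per direction), those in all 8 libraries of an arm or line and none of the other, the 6 broadest found in all 16 libraries, and the 3 largest width changes each way with ACBI-1. Time was tested in the same way for widths, and its called regions are named in addition. Alternatives were other list lengths, minimum widths, overlaps, windows, filters, strata, a replicate block and each library left out. Gene lists were not applied, since the gene table is on another build. Of its 62 listed genes 62 matched by symbol, for order only. Scripts ran in Python 3.11.15 with NumPy 2.4.6, pandas 2.3.3 and matplotlib 3.10.9. The permutation tests were tried on simulated presence, window counts and widths with known changes. Merging and the placing of peaks in intervals were not simulated.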

Additional observations from a re-analysis of the deposited data

Results flagged for a closer look

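In MOLT4 the width of 2 named regions moved in opposite directions with ACBI-1 at the 2 times, with every library of 1 arm above every library of the other at each time. The difference between times was not tested for either. The values are bases covered, not divided by the library's median. Over all peaks of a MOLT4 list the median width was 318 and 341 bp with DMSO and 347 and 377 with ACBI-1 at 3 h. At 24 h it was 443 and 427 with DMSO and 357 and 399 with ACBI-1. The first region thus moved as its lists did, and the second the other way. At chr6:30293563-30295233 in class I, the peaks covered 956 and 1049 bases with DMSO and 1226 and 1139 with ACBI-1 at 3 h, and 1477 and 1445 with DMSO and 922 and 918 with ACBI-1 at 24 h. The ACBI-1 change at 24 h minus that at 3 h was -721 bases. At chr6:32939382-32940790 in class II, they covered 893 and 990 bases with DMSO and 816 and 778 with ACBI-1 at 3 h, and 889 and 1192 with DMSO and 1350 and 1290 with ACBI-1 at 24 h, a difference between changes of 424 bases. Of the 65 MHC regions found in every library, 8 (12.3%) showed such a pattern in MOLT4 and 1 (1.54%) in DND41, where 4.68% and 2.97% of the 12037 regions of the genome did.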

How the results depend on the processing

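Replicate numbers were not used as pairs in the main tests, and the labels do not say whether same-numbered libraries belong together. Their deviations had correlations of -0.107 and 0.013 in DND41 (3 h, 24 h) and -0.050 and 0.017 in MOLT4. With 2 libraries in a group these values cannot settle it. With the number as a replicate block the smallest possible exact permutation p is 0.00781, and these values no longer passed: the class I count difference (-6.75, adjusted p = 0.0694), the 3 share differences of treatment (0.322, 0.220 and 0.143 in class I, III and II, adjusted p = 0.0798), class III bases (-2634) and class I bases between lines (4155). The class II share between lines now passed (0.097). Regions called for DND41 became 3, where the genome had 1760. Width calls became 0 for MOLT4, 0 for 24 h and 0 for 3 h, and the genome also had 0 of each.

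A common minimum width of 170 bp ended the treatment calls on class I count (-5.25), class II count (-2.88) and class II share (0.136). Equal lists of 26145 peaks turned the count differences to 4.13, 2.25 and 0.75 in class I, III and II, which repeat the shares of 0.158, 0.0861 and 0.0287, and ended the calls on class I (-3479) and class III bases (-1360). They called class I between lines (6.38), 0 regions lost, 3 for DND41, 3 wider in MOLT4 and 0 wider at 24 h. Over the genome they called 0 regions lost, 2263 for DND41, 426 wider in MOLT4 and 293 wider at 24 h. With only peaks supported by another library (88.6% of peaks), the class III count passed (-3.50), the class III line difference reversed (-0.25 peaks, -0.034 per 1000, neither called) and shares at 24 h passed (0.324, 0.152 and 0.149).

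A window longer by 100 kb at both ends called the line difference for class I (7.50 peaks) and class II (0.103 per 1000). Background windows of 2 Mb called the class I share between times (0.157). Adjusting over all regions of at least 2 libraries left 0 lost, 0 MOLT4 and 0 DND41 regions, and 0 of each in the genome. Without strata 3 were called for DND41, where the genome had 1771. Widths not centred on the library gave 36 wider at 24 h and 0 at 3 h, where the genome had 3704 and 21. They reversed 3 named regions (chr6:30034409-30035298, 0.066, chr6:30614659-30615630, 0.035, and chr6:30684839-30685527, 0.061). The widest peak of a region gave 0 at 24 h, where the genome had 334. Per 1000 bases covered, added after the data were seen, covered bases reversed to 0.182, 0.191 and 0.154. The cause was not tested for any of these.

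Leaving out each library in turn gave treatment differences of -9.13 to -4.38 in class I count, -4.63 to -2.63 in class II count, 0.119 to 0.167 in class II share and -3233 to -2036 in class III bases. Line differences ran from 3.63 to 8.38 (class I count), 1.63 to 3.63 (class II count), 0.073 to 0.121 (class II share) and 2675 to 5636 (class I bases), and the class I share between times from 0.127 to 0.187. Called regions numbered 3 to 5 lost, 4 to 8 for MOLT4, 3 to 5 for DND41, 1 to 6 wider in MOLT4, 0 to 1 wider in DND41, 0 to 3 wider at 24 h and 0 to 5 wider at 3 h. The genome had 2689 where 5 of 21 tested MHC regions were lost and 5138 where 8 of 20 were called for MOLT4. It had 688 where 1 was wider in DND41 and 1245 where 5 were wider at 3 h. It had 296 to 370 where 1 was wider in MOLT4 and 242 to 375 where 3 were wider at 24 h. The number of genome regions tested in each leave-out is not given here, so these counts are not shares. Depth is unknown, so peaks near the detection limit cannot be told from absent ones.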

Other observations

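Regions of the MHC found in a single library came mostly from MOLT4, while over the genome they came mostly from DND41. Of the 50 such MHC regions, 39 were in MOLT4 and 11 in DND41 libraries, and the genome had 24701 and 42266. The first MOLT4 ACBI-1 library of 24 h alone held 16 of the 50, and the other 15 libraries held 0 to 6 each. By arm, 23 were in DMSO and 27 in ACBI-1 libraries. These counts are given as values, with no test.

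Among regions found in at least 2 libraries, 11 of 161 in the MHC (6.83%) had peaks in DND41 only and 15 (9.32%) in MOLT4 only, and the genome had 17.1% and 18.0%. In class II 6 of 38 (15.8%) had peaks in DMSO libraries only, in class III 4 of 44 (9.09%) and in class I 3 of 79 (3.80%). The genome's share was 21.4%, above all of these. Peaks in ACBI-1 libraries only were found in 1 of 38 (2.63%), 2 of 44 (4.55%) and 3 of 79 (3.80%) in the same order, where the genome had 3.36%.

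The similarity of 2 libraries within the MHC was the share of regions with a peak in both among those with a peak in either. It was 72.1% to 82.8% for the 2 libraries of a group (median 77.1%), had a median of 72.3% over pairs of 1 line and 66.9% over pairs of different lines. The pairs share libraries and are not independent.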
